A study of Mus musculus with 29 samples.

Results

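The Zrsr1 and Commd1 region is the stretch of mouse chromosome 11 from 22.869 to 22.877 Mb (build mm9), and its members are the CpGs with deposited reads inside it. Of 2828076 autosomal CpGs read in at least 1 of the 29 libraries, 69 lay in the region, and 46 of these were read in all 29. The CpGs were chosen by position alone, but the region itself was picked out with methylation values of these libraries already known. Its levels are therefore a description, and a count of called windows, given beside its background, is no independent support for a pattern. A 500 bp window was kept where every library had 10 or more reads over the shared CpGs. Of 93018 autosomal windows kept, 5 lay in the region, and a sixth, starting at 22873000, held shared CpGs but too few reads.

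Zrsr1 encodes a U2AF-related RNA-binding protein and is an intronless gene that lies inside an intron of Commd1, in the opposite direction. It is imprinted: the maternal copy of its promoter is methylated in the oocyte and silent, and the paternal copy is unmethylated and expressed. Commd1, which encodes a protein of copper handling and endosomal sorting, has its own promoter outside this methylated stretch. An imprinted control region of this kind is expected to stay methylated on a single parental copy in body cells, and the mark, once lost outside the germline, is as a rule not written again.

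The assay was RRBS, bisulfite sequencing of a reduced, CpG-rich part of the genome. Male embryonic stem cell (ESC) lines named J-34, J-35 and J-37 were moved into each medium at passage 4 and harvested 6 passages later (p10) or 16 passages later (p20). The media were 2i/L, a2i/L, PKCi/L and serum with LIF (S/L); 2i/L blocks Mek1/2 and Gsk3 and holds LIF, and what a2i/L and PKCi/L contain is not stated in the labels. At p20 and after it, 2 libraries came from a2i/L (J-34 and J-35), 2 from PKCi/L (J-34 and J-35), 3 from 2i/L, 3 from cells put back from 2i/L into S/L for 3 passages (p23), 2 from cells put back for 10 passages (p30) and 3 from S/L. At p10 there was 1 library each of a2i/L (J-34) and PKCi/L (J-35), and 3 each of 2i/L and S/L. Line J-34 was also grown for 6 passages with PD or with CHIR, names used in this field for a Mek1/2 inhibitor and a Gsk3 inhibitor, with 1 library each. The Mek1/2 DKO library came from a male line of induced pluripotent stem cells: Mek1fl/fl;Mek2-/- embryonic fibroblasts were reprogrammed with lentiviral M2rtTA and doxycycline-inducible Oct4, Klf4, Sox2 and c-Myc, a colony was picked, Cre removed Mek1, and the cells were kept on irradiated feeder fibroblasts in S/L. No such stem cells with Mek1 and Mek2 were measured, so genotype and cell origin cannot be told apart. Neonatal keratinocytes gave 2 male libraries labelled 2i/L, with no account of how they derive from cells in 2i/L, and 1 wild-type library labelled female. The p30 library titled J-35 carries J-34 in its cell type and growth labels, and is named here by its title. Expression was not measured, so the cell labels could not be checked against marker genes.

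Libraries held 8359802 to 22433006 reads over CpGs, with the wild-type keratinocytes lowest, and 341 to 1184 of these lay in the region. They read different CpGs there. 12 CpGs were read only in keratinocyte, a2i/L p20, PKCi/L p20 and p30 libraries, and 2 more in those and in the libraries of p23, 2i/L p20 and S/L p20. All levels below therefore use CpGs read in all 29 libraries unless stated otherwise.

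To show what was read, the promoters of both genes are given 5′ to 3′ on the gene strand from RefSeq (build GRCm38.p6), as the 250 bases before each listed start. Capitals mark CpGs that all 29 libraries read. Zrsr1 lies at chr11:22972005-22976496 on the plus strand and Commd1 at chr11:22899728-22984539 on the minus strand of that build.
Zrsr1 promoter, chr11:22971755-22972004, plus strand: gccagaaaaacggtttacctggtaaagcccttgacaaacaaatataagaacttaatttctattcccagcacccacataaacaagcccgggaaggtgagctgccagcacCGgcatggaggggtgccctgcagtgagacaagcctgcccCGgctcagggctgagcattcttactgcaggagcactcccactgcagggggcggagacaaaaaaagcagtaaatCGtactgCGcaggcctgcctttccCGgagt
Commd1 promoter, chr11:22982285-22982534, minus strand: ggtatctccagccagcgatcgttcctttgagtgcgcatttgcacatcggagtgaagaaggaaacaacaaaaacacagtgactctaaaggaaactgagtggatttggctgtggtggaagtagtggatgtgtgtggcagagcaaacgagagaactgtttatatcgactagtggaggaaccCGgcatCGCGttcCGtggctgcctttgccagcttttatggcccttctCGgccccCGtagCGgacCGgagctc

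No mm9 annotation was used here, so the promoters were placed by their CpG spacing. The Zrsr1 record, which runs from 250 bases before to 50 bases after the start, holds 10 CpGs, and all 8 CpGs deposited in the matching span fell on them. The Commd1 record holds 18 CpGs, and all 13 deposited in its span fell on them. Each record matched in this way at 1 place on chromosome 11, which puts the Zrsr1 start at 22872005 and the Commd1 start at 22882284 in mm9. RefSeq lists a second Commd1 start inside the region, which matched 11 of 11 deposited CpGs and lies at 22872866. The 69 CpGs run from 22870483 to 22874252 in mm9, or from -1522 to 2247 bases relative to the Zrsr1 start. In RefSeq this stretch lies inside Commd1, and the CpGs after the start lie in Zrsr1. TGCCGC, the hexamer that the imprint-protecting protein ZFP57 binds when methylated, was searched on both strands. It was absent from the Zrsr1 record and from the second Commd1 start, was found 1 time in the Commd1 record, and is held by 11.6% of the 32851 RefSeq promoter records of the same length. Only promoter records were searched, so the rest of the region may hold the hexamer.

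The region was partly methylated in the wild-type keratinocytes, a skin cell type. Over the 5 windows, 112 of their 231 reads were methylated, or 48.5% (Wilson 95% interval 42.1 to 54.9%). All 5 windows lay at 30 to 70% in this library, from 30% in the window starting at 22873500, which had 10 reads there, to 58.8% in the window starting at 22874000. How many of all windows lay at 30 to 70% in this library was not counted. A read can span several CpGs, so these intervals, which hold counting error alone, are too narrow. The Commd1 promoter was unmethylated in every library, with 0 to 1.13% of its reads methylated, from 55 to 244 reads each. The methylated stretch held the Zrsr1 promoter and the second listed Commd1 start, and the first Commd1 promoter lay outside it.

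**Figure D1:**
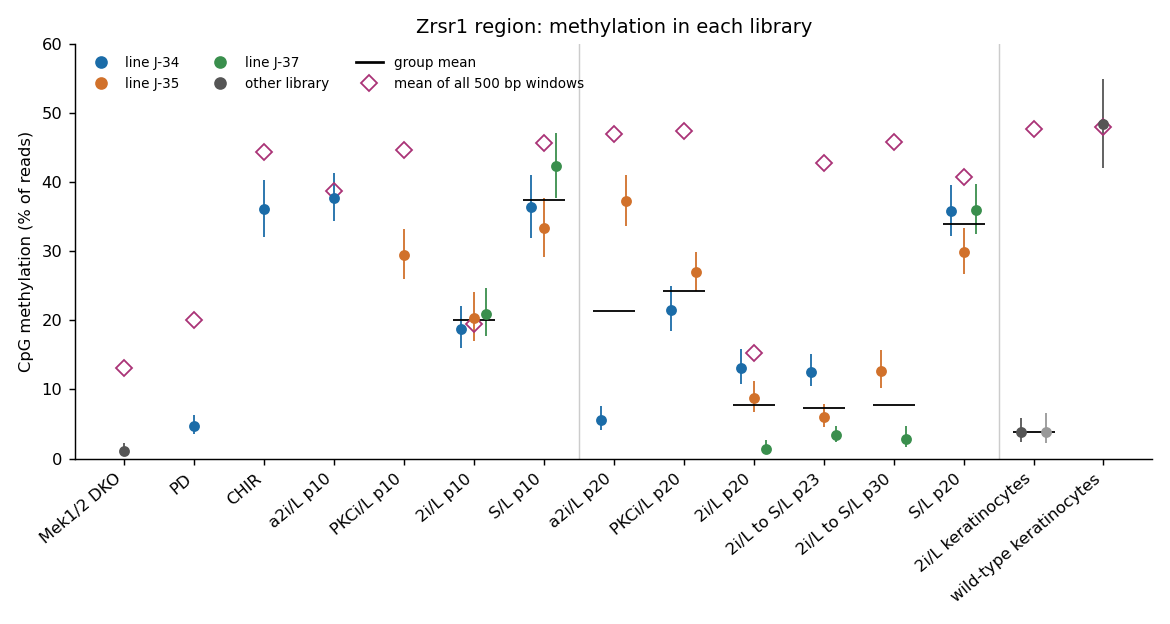
Share of methylated reads over the 5 windows of the Zrsr1 region (y axis, percent) in each of the 29 libraries, by group (x axis). Points are libraries with Wilson 95% intervals, bars are means of groups with 2 or 3 libraries, and open diamonds are the group's mean over all 93018 windows. After the return to S/L the diamonds lie at 42.8% and 45.9%, while the region lies at 7.33% and 7.78%.

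Methylation of the region was lower in every 2i/L library than in the S/L libraries of its passage; limma called 4 of 5 windows lower at p20 and 0 at p10. In 2i/L p10 it was 18.8% in J-34, 20.3% in J-35 and 20.98% in J-37, and in S/L p10 it was 36.4%, 33.3% and 42.4% in the same order of lines. In 2i/L p20 it was 13.2% in J-34, 8.77% in J-35 and 1.42% in J-37, and in S/L p20 it was 35.9%, 29.96% and 36.0%. In 2i/L the 3 lines stood close together at p10 and far apart at p20, where J-37 had 9 methylated of 635 reads. The mean of all windows did likewise. In J-34, J-35 and J-37 it was 19.4%, 19.1% and 19.7% in 2i/L p10, and 20.6%, 14.9% and 10.4% in 2i/L p20.

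The group mean was 20.04% ± 1.11 in 2i/L p10, against 37.3% ± 4.59 in S/L p10 (SD, n = 3 each). At p20 the mean was 7.78% ± 5.94 in 2i/L, against 33.9% ± 3.45 in S/L (SD, n = 3 each). At p20, 4 of the 5 windows were called lower in 2i/L by limma, at adjusted p of 0.000346 to 0.000862 over all windows, against a background of 52.3% of all autosomal windows. Windows were called where the group means lay 20 or more points apart and the adjusted p was below 0.05. The fifth window, starting at 22873500, had 7.83% ± 7.90 in 2i/L, against 23.2% ± 2.78 in S/L (SD, n = 3 each), a difference of -15.4 points with an adjusted limma p of 0.00637, short of 20 points. At p10 limma called 0 of 5, where 55.8% of all windows were called lower. The window differences there were -12.2 to -21.4 points. At an unadjusted threshold of 0.05 limma found 0. The quasi-binomial model, the second tool, found 2 at that threshold and called 1 after adjustment. Fitted to the 2 groups alone, limma found 3 at that threshold and called 1 after adjustment. The median over all windows was -28.8 points at p10 and -24.5 at p20, and over the 5 windows it was -14.7 and -25.6. The p20 difference minus the p10 difference was -3.04 to -13.4 points. limma called 0 of 5 windows for that change, against 0.00108% of all windows in each direction, and found 0 at an unadjusted threshold of 0.05. The p10 libraries and the p20 libraries read different CpGs of the region, so for that change passage and set of libraries cannot be told apart.

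The 2 single inhibitors gave different levels in J-34, with 1 library each. With PD the region had 4.74% methylation (41 of 865 reads, Wilson 95% interval 3.51 to 6.37%), and with CHIR it had 36.1% (191 of 529 reads, 32.1 to 40.3%). J-34 in S/L p10 had 36.4%, close to CHIR. In the Mek1/2 DKO cells, which were kept in S/L, 6 of 585 reads were methylated, or 1.03% (0.471 to 2.22%), the lowest value of the 29 libraries. Of 31 CpGs with 10 or more reads in that library, 26 had no methylated read. All 5 windows lay at least 20 points below the S/L p10 mean with PD, as did 55.3% of all windows, and in the Mek1/2 DKO cells, as did 57.5%. With CHIR 0 of 5 windows did, against 3.1% of all windows. The group means of all windows were 20.1% with PD, 44.4% with CHIR and 13.1% in the Mek1/2 DKO cells. The Mek1/2 DKO cells also have 1 library, so none of these 3 levels has a replicate check.

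After cells left 2i/L, the region stayed near its 2i/L level, while the mean of all windows was higher in every line. At p23, 3 passages after the return to S/L, J-34 had 12.6%, J-35 had 6.05% and J-37 had 3.36%, and in 2i/L p20 the same lines had 13.2%, 8.77% and 1.42%. The difference was -0.573 points in J-34, -2.72 in J-35 and 1.94 in J-37, and the order of the lines was the same. Over all windows, the mean level was 42.8% ± 0.512 in returned cells, against 15.3% ± 5.09 before the return (SD, n = 3 each).

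**Figure D2:**
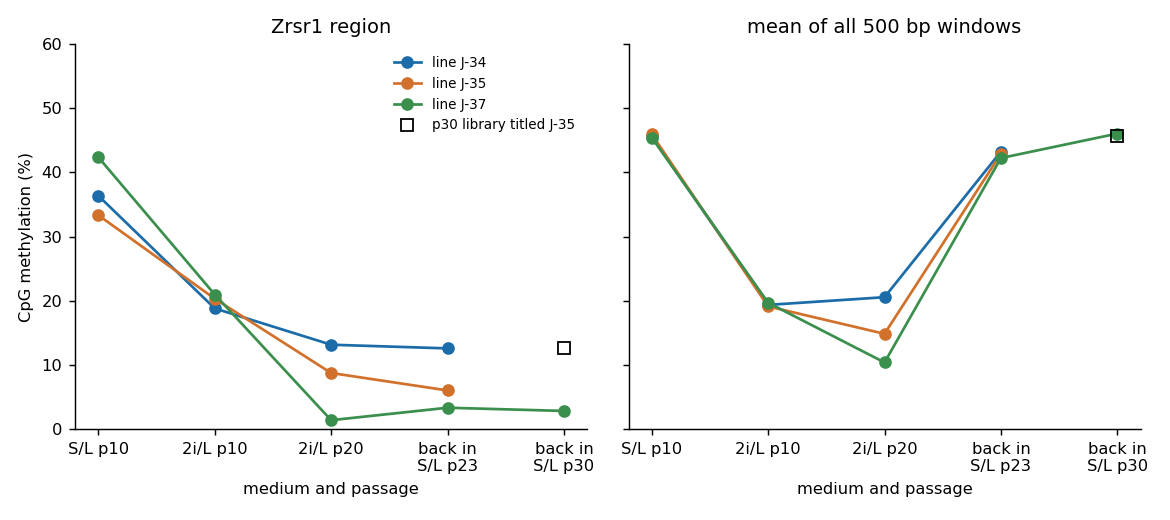
CpG methylation (y axis, percent) of the Zrsr1 region (left) and as the mean of all 500 bp windows (right) by medium and passage (x axis); each line joins the libraries of one ESC line, and the square is the p30 library titled J-35. The left panel stays low after the return to S/L, at 2.86% to 12.7%, while the right panel climbs to between 42.2% and 46.0%.

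Against 2i/L p20, limma called 0 of the 5 windows higher at p23, where 57.1% of all windows were called higher. The window differences were -4.05 to 0.580 points. limma found 0 at an unadjusted threshold of 0.05, and the second tool also called 0. The median over all windows was 32.3 points, and over the 5 windows -0.750.

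Set against the cells kept in S/L up to p20, returned cells were lower in each line, with differences of -23.3 points in J-34, -23.9 in J-35 and -32.6 in J-37. The p23 mean of the region was 7.33% ± 4.75, against 33.9% ± 3.45 without 2i/L (SD, n = 3 each). No p23 library reached the S/L p20 range of 29.96 to 36.0%. Cells kept in S/L were not measured at p23, so for this comparison passage cannot be told apart from the return. limma called 3 of the 5 windows lower at p23, against a background of 0.455% of all windows. They were the window starting at 22871500, which holds the promoter CpGs shown above, at -27.8 points (adjusted p = 0.0272), the window at 22872500 at -28.8 points (adjusted p = 0.0398) and the window at 22874000 at -29.7 points (adjusted p = 0.00679), all by limma. The window at 22872000 was -24.0 points from S/L p20 at an adjusted limma p of 0.0724, and the window at 22873500 was -18.7 points from it at 0.0364. The adjusted p-values lie near the threshold: limma called 1 window without S/L p20 of J-34, J-35 or J-37 or without p23 of J-37, 2 without p23 of J-35, and 1 with a pseudocount of 0.5. The difference in level itself was -24.6 to -29.2 points without any 1 of these 6 libraries. These libraries read 53 to 54 CpGs of the region each. With no read minimum beyond 1, the windows at 22871500 and 22872500 were no longer called (limma adjusted p = 0.0715 and 0.0935), and with a minimum of 5 reads the window at 22872500 was not (limma adjusted p = 0.0530). With either minimum the window at 22873000, at 0% in p23 and 55.8% in S/L p20, came in and was called lower. That window holds 3 shared CpGs and had 15.9% in S/L p10, far below its S/L p20 level.

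The same difference was also taken for windows elsewhere that had less methylation in 2i/L. Of the 51859 windows that 2i/L had lowered at p10, by limma, 0.727% were called lower in p23 cells than in S/L p20 cells. In p30 cells 0.121% were. The group means of the p10 comparison share no library with those of these comparisons. The calls came from the same limma fit, however, which takes the spread of each window over all libraries in it. The shares are therefore no independent background. The 51859 windows had a median difference at p23 from S/L p20 of 1.94 points. The 5th percentile was -14.5 and the 1st percentile was -27.2. The 5 windows of the region, which were not in that set, lay at -18.7 to -29.7 points.

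**Figure D3:**
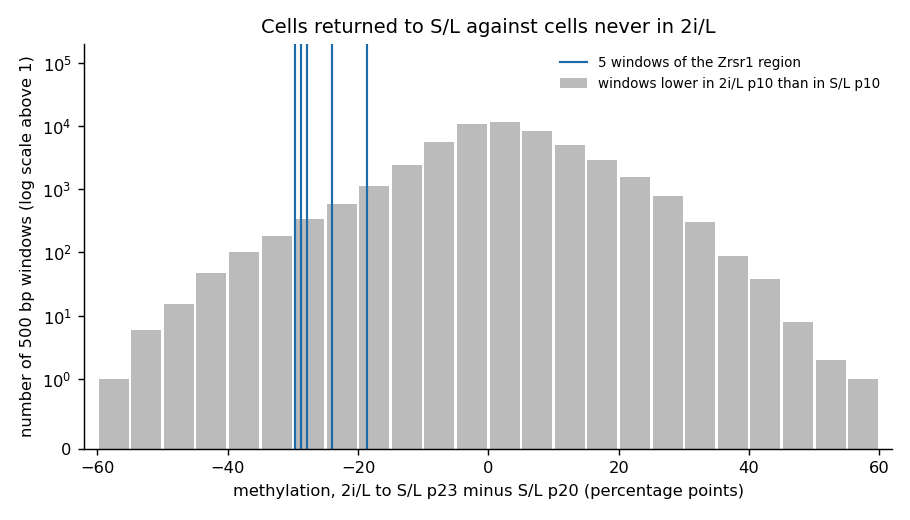
Number of 500 bp windows (y axis, log scale above 1) by the difference in methylation between 2i/L to S/L p23 and S/L p20 (x axis, percentage points), for the 51859 windows that were lowered by 2i/L at p10; blue lines are the 5 windows of the Zrsr1 region. The lines fall between -29.7 and -18.7 points, in the lower tail of a distribution whose median is 1.94.

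At p30, 10 passages after the return, the level was 12.7% in the library titled J-35 and 2.86% in J-37. The p30 library titled J-35 was nearer to p23 of J-34, at 12.6%, than to p23 of J-35, at 6.05%. J-37 was low in all 3 libraries collected from 2i/L p20 on. The p30 mean was 7.78% ± 6.96 (SD, n = 2), and the S/L p20 mean was 33.9% ± 3.45 (SD, n = 3). limma called 2 of 5 windows lower, where 0.0871% of all windows were. These were the windows starting at 22871500, at -25.0 points (limma adjusted p = 0.0315), and at 22872000, at -28.6 points (limma adjusted p = 0.00515). Without p30 of J-37 it called 0 windows, without S/L p20 of J-34, J-35 or J-37 it called 1, and without the library titled J-35 it called 2. The level difference was -31.1 points without the library titled J-35 and -21.2 without J-37. The p30 and S/L p20 libraries read different CpGs and differ in passage. For this comparison the set of libraries and the passage cannot be told apart from the return.

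The 2i/L keratinocytes were also almost without methylation at the region. Their libraries had 18 methylated of 476 reads, or 3.78% (Wilson 95% interval 2.41 to 5.90%), and 12 of 310 reads, or 3.87% (2.23 to 6.64%), against 48.5% in wild-type keratinocytes. All 5 windows were at least 20 points lower in both libraries, as were 1.56% of all windows. The mean of all windows was 47.7% in 2i/L keratinocytes and 48.0% in wild-type keratinocytes. There is 1 wild-type library, labelled female where the others are labelled male, so sex and origin cannot be told apart.

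In a2i/L p20 the library of J-34 lay far below that of J-35. In J-34 the region had 37.8% in a2i/L p10 (286 of 757 reads, Wilson 95% interval 34.4 to 41.3%) and 5.59% in a2i/L p20 (38 of 680 reads, 4.10 to 7.58%). J-35 in a2i/L p20 had 37.3% (250 of 671 reads, 33.7 to 41.0%), and no a2i/L p10 library of J-35 was analysed. The mean of all windows was 46.8% in J-34 and 47.3% in J-35 at p20, where the region itself differed by far more. At single CpGs with 10 or more reads in both libraries, J-34 was lower than J-35 at 35 of 35, with a median difference of -27.8 points. Neighbouring CpGs share reads and are not independent, and the same count over all CpGs was not taken. J-34 in a2i/L p20 lay below J-34 in 2i/L p20, at 13.2%, and J-35 in a2i/L p20 lay above J-35 in S/L p20, at 29.96%.

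**Figure D4:**
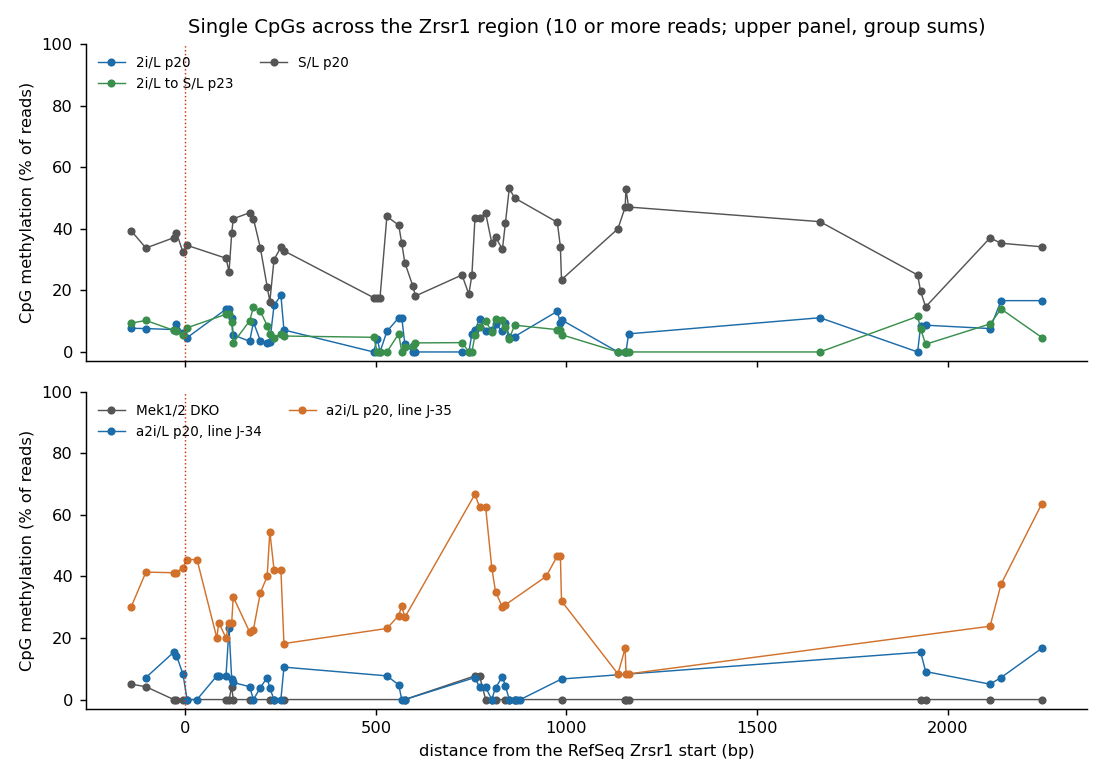
Methylation of single CpGs with 10 or more reads (y axis, percent of reads) by distance from the RefSeq Zrsr1 start (x axis, bp; dotted line at 0). The upper panel sums the libraries of 2i/L p20, p23 and S/L p20, and in it the S/L p20 points lie above both others at all 53 CpGs. The lower panel shows the Mek1/2 DKO library and a2i/L p20 of J-34 and of J-35. In it J-35 lies above J-34 at all 35 CpGs with 10 or more reads in both. Neighbouring CpGs share reads, and the same counts over all CpGs were not taken.

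In the a2i/L p10 library 0 of 5 windows lay 20 points or more below the S/L p10 mean, against 12.4% of all windows. The a2i/L p20 mean was 21.4% ± 22.4 (SD, n = 2), and that of S/L p20 was 33.9% ± 3.45 (SD, n = 3). limma called 0 of 5 windows lower, against 0.22% of all windows, with 0 at an unadjusted threshold of 0.05 and 0 by the second tool. Without a2i/L p20 of J-35 it called 1 window lower. The difference in level was -12.5 points with all libraries, -28.3 without a2i/L p20 of J-35 and 3.32 without a2i/L p20 of J-34. Against 2i/L p20, limma called 0 of 5 windows higher in a2i/L p20, where 56.9% of all windows were. It found 2 at an unadjusted threshold of 0.05, and the second tool called 0. It called 5 without a2i/L p20 of J-34, and 1 without 2i/L p20 of J-34. The difference from 2i/L p20 was 13.6 points with all libraries, 29.5 points without a2i/L p20 of J-34 and -2.20 points without a2i/L p20 of J-35. The sign of both differences thus rests on 1 library.

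In PKCi/L both lines lay between their 2i/L and S/L levels at p20. PKCi/L p20 had 21.5% in J-34 (131 of 610 reads) and 27.0% in J-35 (250 of 926 reads), and the PKCi/L p10 library of J-35 had 29.5% (180 of 610 reads). From S/L p20 of the same line the difference was -14.4 points in J-34 and -2.96 in J-35, and from 2i/L p20 of the same line it was 8.31 and 18.2 points. In the p10 library 0 of 5 windows lay 20 points or more below the S/L p10 mean, against 3.6% of all windows. The p20 mean was 24.2% ± 3.90 (SD, n = 2), where S/L p20 had 33.9% ± 3.45 (SD, n = 3). limma called 0 of 5 windows lower than in S/L p20, where 0.0806% of all windows were, with 0 at an unadjusted threshold of 0.05 and 0 by the second tool. The window differences ran from -14.3 to 4.57 points. Over all windows the mean was 47.3% in PKCi/L p20 and 40.7% in S/L p20.

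Against 2i/L p20, 1 of 5 windows was called higher in PKCi/L p20, where 57.1% of all windows were. It was the window starting at 22874000, at 32.9% ± 2.38 in PKCi/L p20 (SD, n = 2), where 2i/L p20 had 11.1% ± 4.84 (SD, n = 3), with an adjusted limma p of 0.00414. The other 4 windows had 13.8 to 19.97 points and adjusted limma p of 0.00386 to 0.0187. The count was 2 without either PKCi/L p20 library and without the 2i/L p20 library of J-34 or that of J-35. Between PKCi/L p20 and a2i/L p20, limma called 0 of 5 windows (0.0366% of all windows lower and 0.0548% higher), with 0 at an unadjusted threshold of 0.05 and 0 by the second tool. The difference between PKCi/L and a2i/L was 15.9 points in J-34 and -10.3 points in J-35. The difference of the group means was 2.81 points, or -13.0 without a2i/L p20 of J-34 and 18.6 without a2i/L p20 of J-35. These 4 libraries read 66 to 68 CpGs of the region and those of p30 read 65, while S/L p20 and 2i/L p20 read 53 to 54. Where a2i/L p20 or PKCi/L p20 is compared with S/L p20 or 2i/L p20, medium and set of libraries cannot be told apart.

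The differences ran along the whole covered stretch. With the reads of each group summed, 53 CpGs had 10 or more reads in both groups, and p23 was lower than S/L p20 at 53 of them, with a median difference of -27.7 points. 2i/L p20 was also lower than S/L p20 at 53 of 53. The same counts over all autosomal CpGs were not taken. Over all windows the median difference from S/L p20 was 0.513 points at p23 and -24.5 points in 2i/L p20. Between p23 and 2i/L p20 the 53 CpGs went both ways, with 30 lower, 5 equal and 18 higher at p23. Neighbouring CpGs share reads and are not independent. At single CpGs the p23 group reached 14.5% at most and 2i/L p20 18.4%, and S/L p20 ran from 14.6 to 53.1%.

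One CpG, at 22871999 in mm9 and 6 bases before the Zrsr1 start, had 10 or more reads in all 29 libraries. It is the last CpG in capitals in the Zrsr1 promoter above. At p23 it had 5 of 31 reads methylated in J-34, 1 of 42 in J-35 and 0 of 36 in J-37, and in S/L p20 it had 10 of 33, 11 of 42 and 16 of 39 in the same lines. The p30 library of J-37 had 0 of 19 and that titled J-35 had 5 of 26. In a2i/L p20 it had 2 of 24 in J-34 and 12 of 28 in J-35. The Mek1/2 DKO cells had 0 of 36 (Wilson 95% interval up to 9.64%), the 2i/L keratinocytes 1 of 19 and 1 of 20, and the wild-type keratinocytes 9 of 13. At this CpG the p23 libraries all lay below the S/L p20 libraries, but their intervals overlap. The Wilson 95% interval was 7.09 to 32.6% in p23 of J-34 and 15.3 to 41.1% in S/L p20 of J-35. The share of all CpGs at which these groups part in the same way was not taken.

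The 5 autosomal windows outside the region whose levels were most like it over the 29 libraries had a mean absolute difference of 5.26 to 7.65 points. They start at 11926000 on chromosome 11, 13131500 on chromosome 18, 157386000 on chromosome 2, 12810500 on chromosome 10 and 174124500 on chromosome 2 (mm9). The chromosome 10 window lies where the spacing of the RefSeq promoter of Plagl1, an imprinted zinc finger gene, matched 17 of 17 deposited CpGs. At p23 these windows had 6.96 to 12.1%, and in S/L p20 they had 32.3 to 43.6%. In a2i/L p20 they did not move as one. On chromosomes 11, 18 and 10 the level was 6.74%, 7.59% and 8.39% in J-34 and 39.8%, 39.8% and 38.9% in J-35. On chromosome 2 both lines were methylated, with 48.3% in J-34 and 32.1% in J-35 in the window at 157386000, and 48.6% in J-34 and 45.1% in J-35 in the window at 174124500. The likeness was computed from all 29 libraries, so these values are a description.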

How the data were processed

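Libraries were made with an RRBS kit, 12 barcoded reactions being pooled before bisulfite conversion, and sequenced on a HiSeq 2500, per the labels' protocols. BSMAP 2.89 and build mm9 were used, per the submitters' processing notes. No source used here gives read filters or a conversion rate. The authors deposited 1 list of CpGs per library, in which a text field gives each CpG's methylated and total reads. The deposited score was checked against it and is the methylated share per 1000, without its decimals, in all lines. The text field was recorded as a unit other than counts, and limma was fitted to log ratios of its reads. The quasi-binomial model and the Wilson intervals used its methylated and total reads as counts.

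Reads were summed over 500 bp windows from CpGs read in all 29 libraries, and windows needed 10 reads in each. limma 3.58.1 (R 4.3.3) was fitted to log2((methylated + 1)/(unmethylated + 1)) in the 21 libraries of 8 ESC groups, two-sided, with Benjamini-Hochberg adjustment over 93018 windows. Both this fit and the quasi-binomial model, the second tool, were tested on simulated data. Replicates within an ESC group are different lines, and p-values measure the spread between them. Replicate numbers are cell lines and so pair libraries across groups; same-line deviations had a median correlation of 0.00461 over windows in 30 pairs of libraries, and the blocked fit is in the last section. Windows of the region and the 5 windows most like them in level are named, as are single CpGs with 10 reads in every library. Intermediate windows, defined as 30 to 70% in wild-type keratinocytes, turned out to be all 5. The region, the lists and the tests were chosen with earlier results of these data known.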

Additional observations from a re-analysis of the deposited data

How the results depend on the processing

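The comparisons were recomputed with 5, 20 or no minimum of reads beyond 1, with every CpG covered in a library, 1000 bp windows, a pseudocount of 0.5, the quasi-binomial model, only the 2 groups in the fit, levels as a mean over CpGs, and each library left out; the change between p10 and p20 was not run with the quasi-binomial model or with fewer groups. Of 265 values under alternatives, 242 kept the count of calls within 1.5 times or moved by less than the spread between replicates, and 23 did not. The spread was taken as the larger SD of the 2 groups, which was 22.4 points where a2i/L p20 was compared. In 4 comparisons whose difference in level was smaller than the spread between replicates, 9 values took the other sign, all counted among the 242. For p23 against 2i/L p20, at -0.450 points, it was positive without p23 of J-35 or J-37, without the J-34 or the J-35 library of 2i/L p20, and at a minimum of 20 reads, with 2.24 points at most. For a2i/L p20, the difference from S/L p20 was 3.32 points without J-34 in place of -12.5, and that from 2i/L p20 was -2.20 without J-35 in place of 13.6. For PKCi/L p20 against a2i/L p20, at 2.81 points, it was -13.0 without a2i/L p20 of J-34 and -0.555 as a mean over CpGs. For 2i/L p10 against S/L p10 the quasi-binomial model and the fit of the 2 groups alone each called 1 window lower in place of 0. For p23 against S/L p20 a pseudocount of 0.5 left 1 window lower in place of 3. With no minimum beyond 1 read the count was 2, of which 1 was among those 3 and the other was the added window at 22873000. For p30 against S/L p20 a pseudocount of 0.5 and no minimum beyond 1 read each left 1 in place of 2. For a2i/L p20 against S/L p20 a minimum of 5 reads and none beyond 1 each called 1 window lower in place of 0, which was the added window at 22873000, at 5.56% in a2i/L and 55.8% in S/L. For PKCi/L p20 against 2i/L p20 a minimum of 20 reads called 0 of 3 windows, since the called window at 22874000 was not kept. For the tool, pseudocount and group settings the cause was not tested.

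With cell line as a replicate block, every comparison called as many windows as without it: 4 for 2i/L p20 against S/L p20, 3 for p23 and 2 for p30 against S/L p20, 1 for PKCi/L p20 against 2i/L p20 and 0 for the rest. Leaving out single libraries gave 1 to 3 windows for p23 against S/L p20, 0 to 2 for p30 against S/L p20, 0 to 1 for a2i/L p20 against S/L p20, 0 to 5 for a2i/L p20 against 2i/L p20, 1 to 2 for PKCi/L p20 against 2i/L p20 and 4 each time for 2i/L p20 against S/L p20. Where that left 1 library in a group, it was assumed to vary like the other groups. The class of all windows of the region equals the intermediate windows, so its values, counted among the 242, could not differ. The windows at 22873500 and 22874000 are the shallowest, with medians of 34 and 32 reads per library.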
